A study of Rattus norvegicus with 6 samples.

Results

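The genes described here are the 9 that make up the core of the cellular oxygen sensor: the hypoxia-inducible factor (HIF) subunits Hif1a, Epas1, Hif3a and Arnt, the prolyl hydroxylases Egln1, Egln2 and Egln3, the ubiquitin ligase subunit Vhl and the asparaginyl hydroxylase Hif1an. They were taken by symbol from a deposited table of 23091 genes. Among several identifiers of a symbol, the one with the largest total count over the 6 samples would have been selected on that value, but each symbol stood on 1 identifier. The rule itself reads no difference between the groups, but these 9 genes were proposed with earlier results of the same data known. A further identifier described as similar to Vhl had 0 counts over the 6 samples. The samples were wild-type rat mesenchymal stem cells from marrow, which can form bone, fat and cartilage, and of which 3 were treated with CYSP, a name that the labels do not spell out, and 3, named CK, with the solvent DMSO. Both groups were kept in neural differentiation medium for 7 days. The labels give no strain, age, oxygen level or number of animals, and nothing in them tells whether replicates came from different cultures. The p-values therefore measure the spread among these 6 samples, and that spread may be only technical.

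HIF is a transcription factor made of an alpha subunit, encoded by Hif1a, Epas1 (HIF-2 alpha) or Hif3a, and a beta subunit, mainly Arnt. When oxygen is present, the Egln enzymes hydroxylate prolines of the alpha subunit, which lets the Vhl ligase mark it for destruction, and Hif1an hydroxylates an asparagine that blocks the binding of coactivators. The alpha subunits are therefore controlled mainly as proteins, and the RNA levels given here do not show how much HIF protein or activity the cells held. Egln1 and Egln3 are themselves known HIF target genes, which gives the pathway a negative feedback. Of the 9 genes, Hif1a, Arnt, Egln1, Egln2, Egln3 and Vhl carried the KEGG term for HIF-1 signaling in the deposited annotation, and Epas1, Hif3a and Hif1an did not.

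Total counts lay between 15060933 and 17244700 per sample. A gene with no count in a sample could hold up to 3 counts, or 0.169 to 0.205 CPM (scaled counts per 1e6). This limit and the counting intervals given below cover counting error only. All 11 listed marrow stromal markers had enough counts to be tested. Of these, 6 were higher and 4 lower. Over all tested genes 38.2% were called higher and 37.8% lower, and these shares stand beside each marker count given here. The 11 stromal markers summed to 13177 to 14059 CPM in CYSP samples and 44517 to 46341 CPM in CK samples. Most of that sum was Col1a1, a chain of type I collagen, and without it the sums were 3960 to 4016 CPM in CYSP samples and 4545 to 4581 CPM in CK samples. Among the 6 higher markers was Thy1 with 661 ± 23.2 CPM in CYSP and 562 ± 6.78 CPM in CK (mean ± SD, n = 3 each). Among the 4 lower was Pdgfrb with 269 ± 9.38 CPM in CYSP and 624 ± 17.1 CPM in CK. Of 11 macrophage and leukocyte markers 9 fell, and the summed level of the 11 was 459 to 465 CPM in CYSP samples and 981 to 1108 CPM in CK samples. Without Adgre1, the marker of this list with the highest level, the sums were 249 to 256 CPM in CYSP samples and 468 to 499 CPM in CK samples. The 9 endothelial markers found summed to 9.01 to 9.66 CPM in CYSP samples and 20.2 to 22.004 CPM in CK samples, with Emcn at 0 and Pecam1 and Cdh5 under the count filter in both groups. Of the 6 tested, Kdr and Vwf were higher, Erg, Tie1 and Tek were lower and Egfl7 did not pass. With at least 50 counts in 3 samples, and with both limma fits on log2 FPKM, no endothelial marker was called higher. Erg alone had 0.0455 ± 0.0788 CPM in CYSP and 8.35 ± 1.52 CPM in CK. In the other direction, Kdr had 58 counts over the CYSP group and 0 over the CK group, and Vwf had 72 and 7. Of 10 neuron markers 4 were tested, with Snap25 and Tubb3 higher and Map2 and Dcx lower. Without a count filter, 4 neuron markers were called higher. With at least 50 counts in 3 samples, and with both limma fits on log2 FPKM, 1 was called lower. The 10 summed to 86.0 to 91.3 CPM in CYSP samples and 14.3 to 14.95 CPM in CK samples, with Rbfox3 and Elavl4 at 0. Snap25 had 48.8 ± 3.16 CPM in CYSP and 0.0201 ± 0.0349 CPM in CK. Without it the sums were 38.6 to 44.5 CPM in CYSP samples and 14.3 to 14.95 CPM in CK samples. Tubb3 had 37.8 ± 2.59 CPM in CYSP and 8.67 ± 1.07 CPM in CK. Map2 had 1.35 ± 0.19 CPM in CYSP and 4.27 ± 0.352 CPM in CK. The 4 erythroid markers found were all under the filter, at 0.608 to 1.98 CPM in CYSP samples and 0.282 to 0.754 CPM in CK samples, with Alas2 at 0. In bulk RNA, fewer cells of a type and less RNA per cell cannot be told apart. The part of these cell types in the results below was not tested.

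After treatment, 5 of the 8 members that could be tested were higher, 1 was lower and 2 did not pass the threshold. Egln3 had the largest difference of the 8, followed by the alpha subunits Epas1 and Hif1a and by Egln1, and the difference in Vhl was smaller. Arnt, the shared partner of the alpha subunits, was slightly lower. These calls are from edgeR's quasi-likelihood test on the counts, with Benjamini-Hochberg adjustment over 12623 genes. The counts of members say little alone, because 76.1% of all tested genes were called in the same comparison, 38.2% higher and 37.8% lower. With an additional log2 fold change of at least 1, 4 of the 8 members were called higher, where the share over all tested genes was 15.2%, and none was lower by as much, where it was 12.7%. CYSP and CK samples did not overlap in 6 of the 8 members and in 77% of all tested genes. CYSP lay above CK in 5 of the 6, beside 38.8% of all tested genes, and below CK in 1, beside 38.2%. With an assumed coefficient of variation of 0.2, 5 members were called higher, beside 24.6% of all tested genes, and none lower, beside 22.2%.

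**Figure D1:**
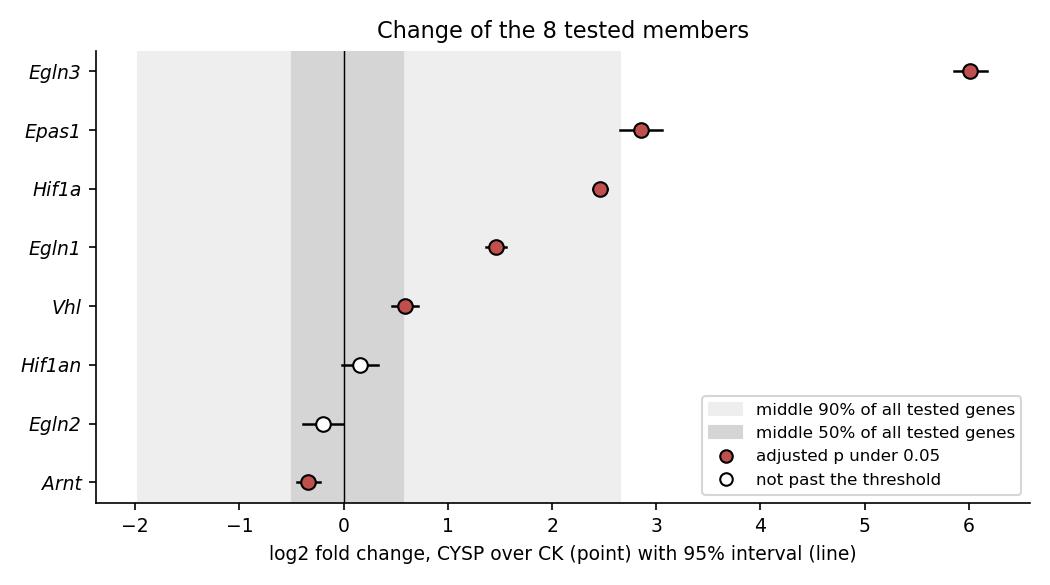
Log2 fold change (CYSP over CK) of the 8 tested members with its 95% interval from the edgeR fit. Filled points passed an adjusted p of 0.05, and the shaded bands hold the middle 50% and 90% of all 12623 tested genes. Egln3 and Epas1 lie above the 95th percentile of 2.65, while Arnt, Egln2 and Hif1an lie inside the middle 50%.

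The 4 members with a log2 fold change above 1 are shown with the start of their gene in the RefSeq annotation of the rat build GRCr8, 250 bases before to 50 bases after the start site, because HIF binds DNA at a short core sequence. That core was searched as ACGTG and as GCGTG on both strands, and matches are in capitals. The windows are chr6:98359648-98359947 on the plus strand for Hif1a, chr6:13624680-13624979 on the minus strand for Epas1, chr19:69804632-69804931 on the minus strand for Egln1 and chr6:77410966-77411265 on the minus strand for Egln3.
Hif1a: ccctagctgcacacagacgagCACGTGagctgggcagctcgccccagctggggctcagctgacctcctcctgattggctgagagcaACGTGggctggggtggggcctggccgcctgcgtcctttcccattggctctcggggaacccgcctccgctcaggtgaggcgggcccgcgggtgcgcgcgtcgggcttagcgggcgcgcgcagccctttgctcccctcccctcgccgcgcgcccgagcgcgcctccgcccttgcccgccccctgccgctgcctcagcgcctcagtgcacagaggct
Epas1: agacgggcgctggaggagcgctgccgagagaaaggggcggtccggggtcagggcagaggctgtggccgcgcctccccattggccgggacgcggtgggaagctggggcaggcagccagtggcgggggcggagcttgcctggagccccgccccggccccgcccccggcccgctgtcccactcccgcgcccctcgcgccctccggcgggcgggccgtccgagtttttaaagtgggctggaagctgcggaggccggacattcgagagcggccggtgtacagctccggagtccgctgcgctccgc
Egln1: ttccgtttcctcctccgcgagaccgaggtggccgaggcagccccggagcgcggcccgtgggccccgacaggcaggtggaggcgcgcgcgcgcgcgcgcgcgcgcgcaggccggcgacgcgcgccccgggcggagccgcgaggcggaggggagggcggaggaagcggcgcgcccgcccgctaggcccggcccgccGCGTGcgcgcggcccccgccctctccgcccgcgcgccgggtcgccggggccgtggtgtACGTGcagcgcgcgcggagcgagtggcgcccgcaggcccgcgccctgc
Egln3: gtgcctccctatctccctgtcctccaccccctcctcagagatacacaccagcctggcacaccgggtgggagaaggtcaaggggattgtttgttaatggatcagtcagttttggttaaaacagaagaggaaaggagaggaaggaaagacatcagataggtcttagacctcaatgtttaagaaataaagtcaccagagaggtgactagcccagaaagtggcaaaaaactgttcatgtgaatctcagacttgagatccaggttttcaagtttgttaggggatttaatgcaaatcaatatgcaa
The Hif1a window held matches 229 and 164 bases before the start site, the first of which reads the same on both strands and so counts on each. The Egln1 window held a match 56 bases before the start site and another just inside the transcript. The windows of Epas1 and Egln3 held none, which says only that these letters are not in these 300 bases. Of all 33469 such windows 41.6% held a match, and 70.2% of the 5362 windows with at least 65% G and C did. The Egln3 window had 44.7% G and C, against 84.7% for Egln1, 75.7% for Epas1 and 73.7% for Hif1a. All 9 members were matched to this table by symbol, with 10 windows because Hif3a has 2 start sites, and Arnt and Hif3a also held matches. A match is a description of the sequence and does not show that HIF binds there.

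Hif1a, the alpha subunit found in most cell types, had the highest level of the 9 genes in both groups. It stood at 382.6, 407 and 397 FPKM (fragments per kilobase of transcript and 1e6 fragments, the deposited unit that compares genes per length) in CYSP samples and at 73.6, 82.1 and 73.3 FPKM in CK samples. Every CYSP sample was above every CK sample. By group mean FPKM, 0.615% of all genes in the table were above Hif1a in CYSP and 3.16% in CK. The log2 fold change was 2.46 (SE 0.0335, edgeR adjusted p = 1.47e-33), a 5.49-fold difference with a 95% interval of 5.24 to 5.76.

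Epas1, the alpha subunit best known from endothelial cells and from the oxygen-dependent control of erythropoietin, had 56.5, 54.3 and 56.3 FPKM in CYSP samples and 7.63, 10.02 and 6.86 FPKM in CK samples. The groups did not overlap, and CK 2 was the highest CK sample. The log2 fold change was 2.86 (SE 0.0874, edgeR adjusted p = 2.35e-09), and it was 2.99 without CK 2. The endothelial markers, given above, were low and went both ways, with 2 of 6 tested higher and 3 lower. The 2 higher calls were absent with the stricter filter and with limma on FPKM.

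Hif3a, whose splice forms can restrain HIF, was close to undetected. It had 2, 9 and 12 counts in CYSP samples and 0 counts in each CK sample. It stayed under the count filter and was not tested. Taking 3 counts over the CK group as the floor and the 23 CYSP counts as measured, it was at least 8.38-fold higher in CYSP. With the counting error of both groups, the lower limit of the ratio was 6.29 (95% Clopper-Pearson interval). The authors' deposited table lists it with an adjusted p of 0.00151 and a log2 fold change of 7.93, which rests on a stand-in of 0.001 FPKM for the CK mean.

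Within the alpha subunits the balance moved by a small amount. Epas1 made up 12.9%, 11.8% and 12.4% of the summed Hif1a and Epas1 FPKM in CYSP samples and 9.39%, 10.9% and 8.57% in CK samples. The ranges did not overlap, with a difference of 2.74 percentage points (exact permutation test, two-sided, p = 0.1, the smallest that 3 against 3 samples can give). Hif1a thus remained the more abundant alpha transcript in both groups, at 7.10 ± 0.369 times Epas1 in CYSP and 9.51 ± 1.25 times Epas1 in CK (SD, n = 3 each).

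Arnt, the beta subunit, which also partners the aryl hydrocarbon receptor, had 14.2, 15.06 and 15.13 FPKM in CYSP samples and 20.6, 20.0 and 19.2 FPKM in CK samples. Each CYSP sample was below each CK sample, and Arnt was the 1 member called lower. The log2 fold change was -0.34 (SE 0.0547, edgeR adjusted p = 5.97e-08), and 65.5% of all tested genes had a larger absolute change. With an assumed coefficient of variation of 0.2 in place of the estimated 0.0393, the Arnt call ended (adjusted p = 0.244). The summed Hif1a and Epas1 FPKM was 30.5 ± 0.491 times the Arnt FPKM in CYSP and 4.25 ± 0.337 times in CK (SD, n = 3 each). Arnt2, a relative that can also pair with alpha subunits, had 22.7 ± 0.828 CPM in CYSP and 17.4 ± 1.80 CPM in CK and was called higher (log2 fold change 0.39, edgeR adjusted p = 0.000173). It had the smallest change of the 5 listed bHLH-PAS and PER genes called higher. With the assumed coefficient of variation of 0.2, only 4 genes of that list were called higher. The symbol Arnt2 stands on 2 identifiers, so its reads may be split.

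**Figure D2:**
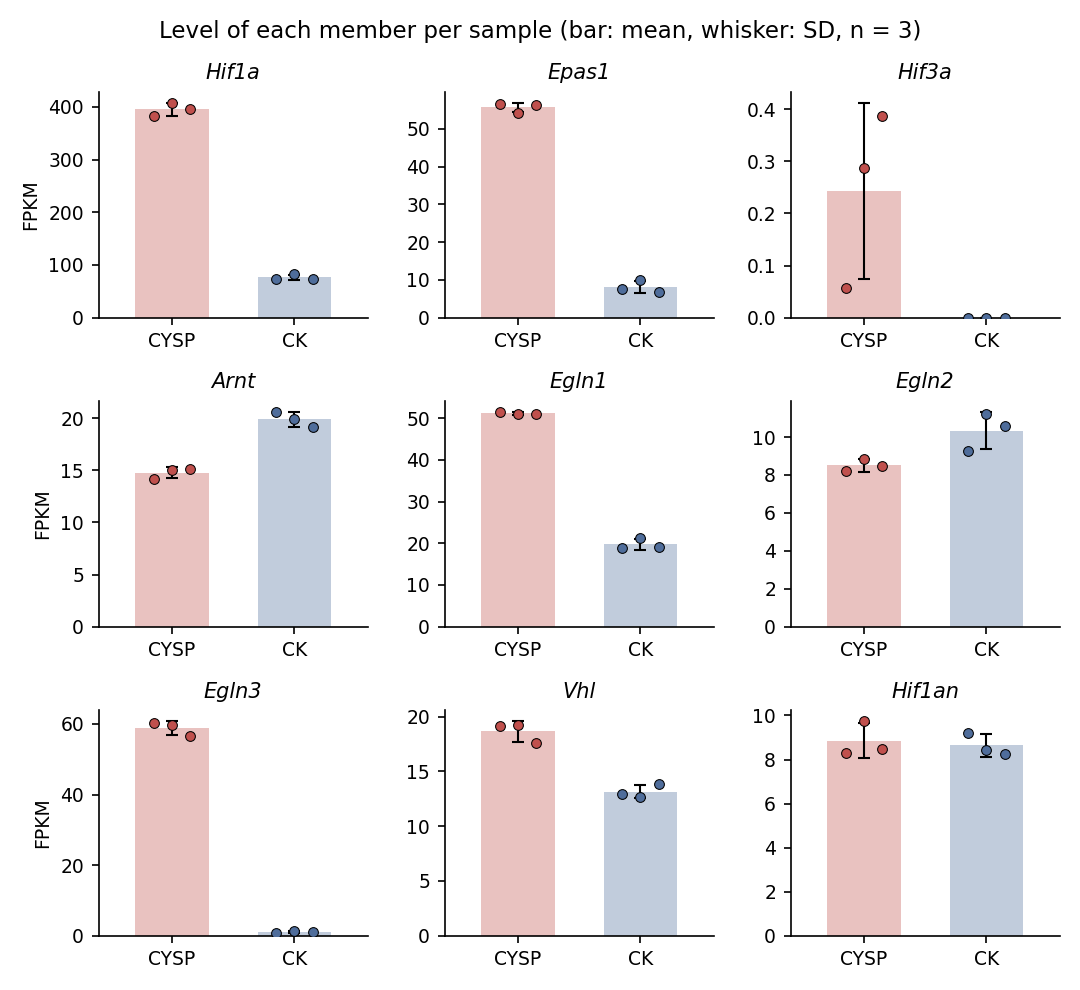
FPKM of each of the 9 genes in each sample, with CYSP left of CK in each panel and axes from 0. Points are samples, bars are means and whiskers are SDs (n = 3). CYSP points lie above CK points for Hif1a, Epas1, Hif3a, Egln1, Egln3 and Vhl, and below them for Arnt and, by a small margin, Egln2. Hif3a was not tested, and its 2 counts in CYSP 1 are within the limit of 3 counts for a sample at 0. The groups overlap for Hif1an.

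The prolyl hydroxylases moved apart. Egln3, the form that HIF induces in many cell types, had 60.4, 59.7 and 56.5 FPKM in CYSP samples and 0.782, 1.22 and 0.904 FPKM in CK samples. The groups were far apart, and CK 2 was again the highest CK sample. The log2 fold change was 6.02 (SE 0.081, edgeR adjusted p = 2.48e-69), or 64.7-fold with a 95% interval of 57.9 to 72.4. Of all tested genes 1.1% had a higher log2 fold change.

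Egln1, regarded as the main hydroxylase of HIF alpha subunits in well-oxygenated cells, had 51.5, 51.1 and 50.9 FPKM in CYSP samples and 18.9, 21.2 and 19.1 FPKM in CK samples. It was higher in each CYSP sample than in any CK sample, with a log2 fold change of 1.46 (SE 0.0496, edgeR adjusted p = 2.05e-41). Egln2, the form reported to be inducible by oestrogen in human breast cancer cells, had 8.2, 8.85 and 8.47 FPKM in CYSP samples and 9.25, 11.2 and 10.6 FPKM in CK samples. These FPKM ranges were separate by a small margin, but the scaled CPM of the groups overlapped, at 17.3 to 18.6 CPM in CYSP and 18.3 to 22.2 CPM in CK. Its log2 fold change of -0.20 (95% interval -0.39 to -0.01) did not pass (edgeR adjusted p = 0.0547). Egln2 did pass, as lower, without CK 1 (adjusted p = 0.0139), with 2 other scalings and with limma on FPKM, and the authors' deposited table gives it an adjusted p of 0.0231. The median log2 fold change over the genes of each fit was 0.0046 in the main fit. It was -0.078 with library size only and -0.074 and -0.087 with limma on FPKM. The part of this offset in the Egln2 calls was not tested.

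Egln3 made up 50.3%, 49.9% and 48.7% of the summed FPKM of the 3 hydroxylase genes in CYSP samples and 2.70%, 3.63% and 2.95% in CK samples. In CYSP it was slightly more abundant per length than Egln1, with an Egln3 to Egln1 ratio of 1.11 to 1.17 in CYSP samples and 0.0414 to 0.0575 in CK samples. The difference in the Egln3 share was 46.5 percentage points (exact permutation test, two-sided, p = 0.1, the smallest possible here). Egln1 made up 43.2% ± 0.661 in CYSP and 63.6% ± 1.51 in CK, and Egln2 made up 7.18% ± 0.309 in CYSP and 33.3% ± 1.303 in CK (SD, n = 3 each). The summed FPKM of the 3 genes was 119 ± 2.33 in CYSP and 31.0 ± 2.35 in CK. The summed Hif1a and Epas1 FPKM was 3.66 to 3.91 times that sum in CYSP samples and 2.62 to 2.81 times in CK samples, so both sums were higher in CYSP and the alpha subunit sum by the larger factor.

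**Figure D3:**
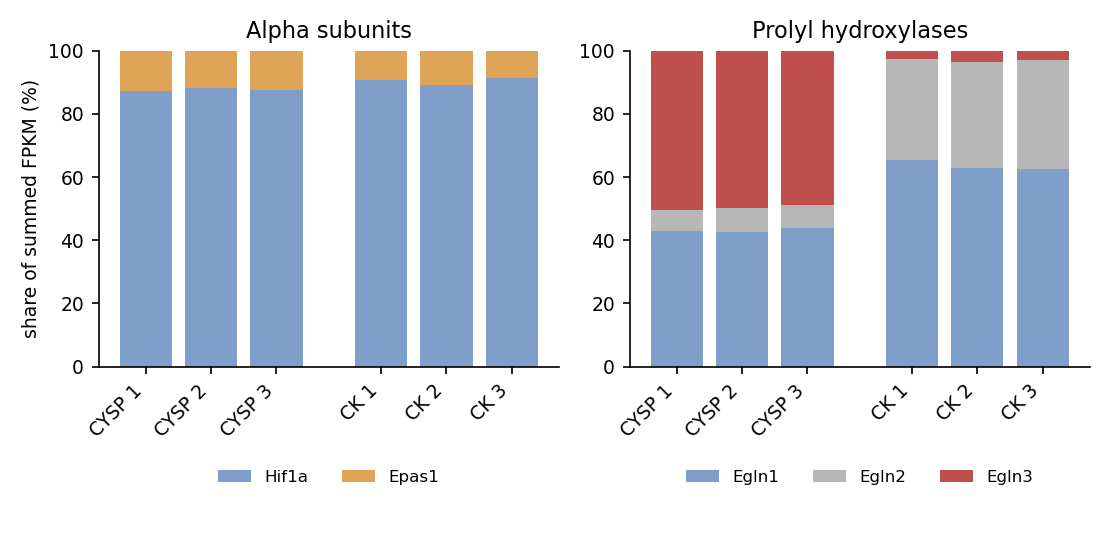
Share of summed FPKM (%) per sample, with CYSP samples left of CK samples. The left panel divides the alpha subunits Hif1a and Epas1, and the right panel divides Egln1, Egln2 and Egln3, where Egln3 holds 48.7% to 50.3% in CYSP samples and 2.70% to 3.63% in CK samples.

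Vhl, the subunit of the ligase that recognises the hydroxylated alpha subunit, had 19.1, 19.3 and 17.5 FPKM in CYSP samples and 12.9, 12.7 and 13.8 FPKM in CK samples. The groups did not overlap, with a log2 fold change of 0.59 (SE 0.0636, edgeR adjusted p = 1.75e-13), a 1.5-fold difference. Hif1an, the asparaginyl hydroxylase also called FIH, had 8.29, 9.76 and 8.49 FPKM in CYSP samples and 9.23, 8.44 and 8.25 FPKM in CK samples, and the groups overlapped. Its log2 fold change was 0.16 (95% interval -0.02 to 0.33, edgeR adjusted p = 0.1), which leaves room for a difference of up to 1.26-fold. Hif1an passed, as higher, when CYSP 3 (adjusted p = 0.0323) or CK 1 (adjusted p = 0.0362) was left out. In the other 15 of the 17 alternative fits Hif1an did not pass. With limma-trend on log2(FPKM + 0.1) its log2 fold change was 0.03 (adjusted p = 0.743). The authors' deposited table gives it a log2 fold change of 0.034 and an adjusted p of 0.845.

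The order of levels per length differed between the groups. In CYSP it ran Hif1a, Egln3, Epas1, Egln1, Vhl, Arnt, Hif1an, Egln2 and Hif3a, where the samples of Egln3 and Epas1 overlapped in range, as did those of Hif1an and Egln2. In CK it ran Hif1a, Arnt, Egln1, Vhl, Egln2, Hif1an, Epas1, Egln3 and Hif3a, where the ranges of Arnt and Egln1 overlapped, and that of Epas1 overlapped those of both Hif1an and Egln2. Within groups, the coefficient of variation of CPM over the 8 tested members was 1.04% (Egln1) to 8.06% (Hif1an) in CYSP and 3.89% (Arnt) to 23.1% (Egln3) in CK. CK 2 was the highest CK sample for 5 of these 8 members, namely Hif1a, Epas1, Egln1, Egln2 and Egln3. Without it the log2 fold change was 2.51 for Hif1a, 1.51 for Egln1 and 6.20 for Egln3.

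The genes with the most similar profile over the 6 samples were found among 8508 other genes with a mean of at least 10 CPM, as the smallest root mean square difference in log2 CPM after centring each gene on its mean. For Egln3 these were Nxph4, which encodes a neurexophilin, Ptx3, which encodes the soluble pattern recognition protein pentraxin 3, and Nos2, the inducible nitric oxide synthase, at differences of 0.0967, 0.151 and 0.158. Nos2 had 426, 415 and 417 CPM in CYSP samples and 4.46, 9.23 and 5.13 CPM in CK samples, with the highest CK value in CK 2 as for Egln3. For Epas1 they were Ndrg1, a known hypoxia-induced gene, Ntn1, the guidance molecule netrin 1, and Slc47a1, an exporter of organic cations, at differences of 0.0696, 0.0738 and 0.0767. Ndrg1 had 271, 274 and 272 CPM in CYSP samples and 33.3, 39.8 and 32.0 CPM in CK samples. These profiles are set almost wholly by the difference between the groups. Of the 8508 genes, 8 lay within a difference of 0.2 from Egln3 and 61 from Epas1, so the genes named for Epas1 are a few of many. Nxph4 had only 0.282, 0.502 and 0.302 CPM in CK samples.

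The wider pathway was read from 8 lists of 126 different genes, of which 116 were tested, 69 were higher and 32 were lower. The counts of each list stand beside 38.2% higher and 37.8% lower over all tested genes. The partners of Vhl in the ligase showed small differences. Of its 4 listed partners, Eloc was higher (log2 fold change 0.22), Cul2 was lower (-0.17), and Elob (-0.09, edgeR adjusted p = 0.153) and Rbx1 (0.20, adjusted p = 0.0539) did not pass. Eloc lost its call with DESeq2 (adjusted p = 0.055), with library size only (0.167), with both limma fits on log2 FPKM (0.0755 and 0.0743) and without CYSP 3 (0.116), CK 2 (0.0743) or CK 3 (0.0796). Cul2 lost its call without CYSP 1 (adjusted p = 0.0994). With the assumed coefficient of variation of 0.2, neither was called (adjusted p = 0.481 for Eloc and 0.591 for Cul2). Calls were also gained. The partners called higher became 2 with at least 50 counts in 3 samples and with limma-voom. Those called lower became 2 with library size only and with both limma fits on log2 FPKM. The symbol Elob stands on 12 identifiers, so its reads may be split.

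Cofactors and stability factors of HIF were split, with 4 of 11 tested genes higher and 7 lower and a median log2 fold change of -0.15, beside a median of 0.0046 over all tested genes. With the assumed coefficient of variation of 0.2, 3 were higher and 3 lower. Usp20, a deubiquitinase that can protect HIF-1 alpha, had 36.5 ± 1.03 CPM in CYSP and 14.5 ± 2.02 CPM in CK (SD, n = 3 each). Os9, an endoplasmic reticulum lectin reported to bind HIF-1 alpha, was higher by a log2 fold change of 1.01. Siah2, a ubiquitin ligase of the Egln proteins, had 5.09 ± 0.822 CPM in CYSP and 10.7 ± 0.692 CPM in CK. Of 11 tested relatives with bHLH-PAS domains or PER proteins 5 were higher and 4 were lower, with a median of -0.01. Npas2, a partner of Bmal1 in the circadian clock, was higher by a log2 fold change of 2.03 and the clock gene Per3 was lower (-2.61). Npas4, an activity-dependent factor of neurons, had 2 counts over the CYSP group and 116 over the CK group, a ratio of 53.0 in favour of CK (95% Clopper-Pearson counting interval 14.4 to 443).

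Other enzymes that, like Egln and Hif1an, use oxygen and 2-oxoglutarate did not follow 1 direction. Of 33 tested genes 17 were higher and 11 were lower, with a median log2 fold change of 0.11. Under the assumed coefficient of variation of 0.2 the count of higher genes was 11. The collagen-modifying members spanned the range, with P3h2 at 2.62, Plod1 at 1.80, P3h3 at -0.84 and P4ha3 at -3.85. P4ha3, a subunit of collagen prolyl 4-hydroxylase, had 15.3 ± 0.699 CPM in CYSP and 222 ± 8.22 CPM in CK (SD, n = 3 each). Of 13 tested genes that supply or consume the substrates, inhibitors and cofactors of these enzymes 3 were higher, 4 were lower and 6 did not pass. Slc23a2, a transporter of ascorbate, had 151 ± 2.62 CPM in CYSP and 60.6 ± 2.55 CPM in CK. Pcbp1, an iron chaperone, was lower (-0.54), but with the assumed coefficient of variation of 0.2 that call ended (adjusted p = 0.0509) and none of the 13 genes was lower.

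Genes known as HIF targets were mostly higher, which was already known when these lists were made and is no independent evidence. All 20 listed glycolytic targets rose (median log2 fold change 1.47). The largest were Pfkfb3, a regulator of glycolysis, Eno2, an enolase, and Slc16a3, a lactate exporter, at 3.58, 2.87 and 2.53. Of 20 tested non-glycolytic targets 16 rose and 4 fell. Car12, a carbonic anhydrase listed as Ca12, was at 6.90 and Adm, adrenomedullin, at 4.35. Edn1, endothelin 1, was at -7.39, with 8 counts over the CYSP group and 1532 over the CK group. Epo, the hormone erythropoietin and the best-known Epas1 target, had 0 counts in each sample, which allows up to 0.205 CPM in the sample with the highest limit. Of the other targets reported to prefer Epas1, 4 were tested. The iron importer Slc11a2 had 350 ± 4.92 CPM in CYSP and 68.1 ± 5.24 CPM in CK, and the cyclin Ccnd1 had 53.5 ± 2.00 CPM in CYSP and 5.23 ± 0.212 CPM in CK, while the growth factor Tgfa was lower (-1.15).

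**Figure D4:**
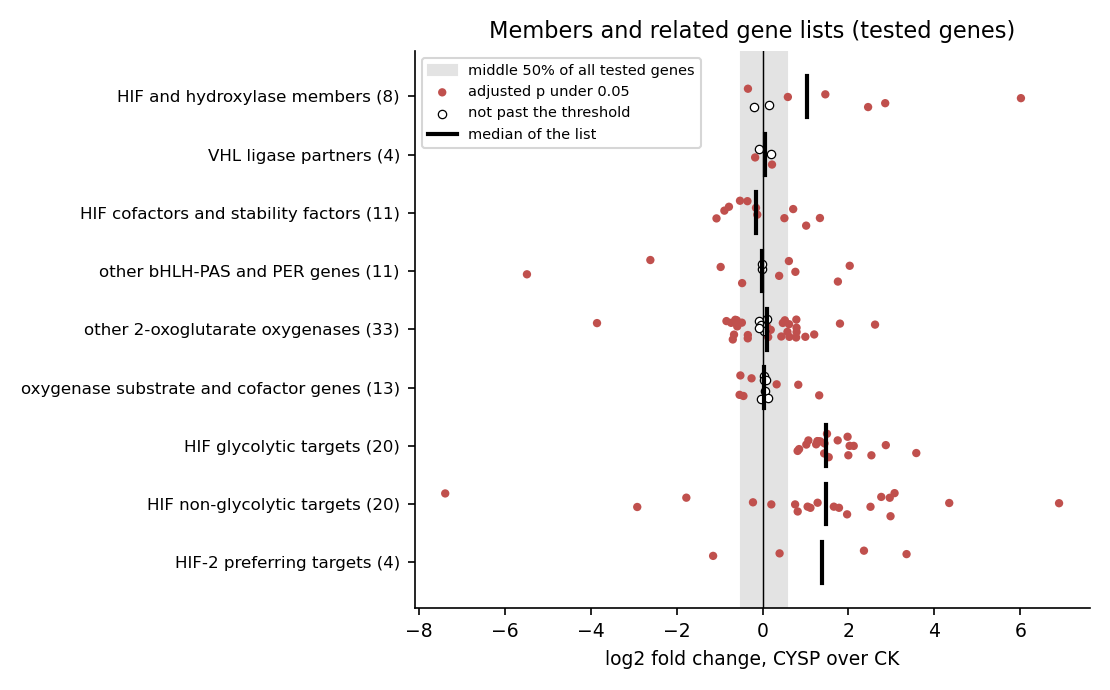
Log2 fold change (CYSP over CK) of every tested gene of the core members and of the 8 related lists, with the number of genes in brackets. Red points passed an adjusted p of 0.05, black bars are medians and the grey band holds the middle 50% of all tested genes. The 20 glycolytic targets all lie right of 0, while the cofactor, bHLH-PAS and oxygenase lists lie on both sides.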

How the data were processed

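Polyadenylated RNA of 3 CYSP and 3 CK samples was sequenced, per the labels' protocols. The submitters' processing notes name fastp 0.18.0, HISAT2, StringTie 1.3.1 and RSEM without assigning roles. Which build and which counting tool made the table is not stated, nor whether strand was used, so overlapping genes may share reads. Per the file headers, the deposited table gives raw read counts and FPKM for each gene and sample. It also gives the authors' log2 fold change, which equals the log2 ratio of the 2 mean FPKM, and the authors' p-value, for which no test is named.

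Counts were tested with edgeR 4.0.16 in R 4.3.3 (filterByExpr, TMM scaling, robust glmQLFit, glmQLFTest, adjusted p under 0.05). The filter kept 12623 genes. Another 6878 had no count and 3590 were under the filter. CPM is TMM-scaled. Each standard error comes from the F statistic of its gene. Totals of 15060933 to 17244700 counts limit the precision of low genes. Shares of FPKM were compared with an exact permutation test over samples. Lists were read as counts and medians with no set test, and a symbol on several identifiers was represented by that with the most counts. In each list the text could name the 3 largest called changes among genes averaging 1 CPM or more, plus 2 in the rarer direction. Elob, Rbx1, Arnt2 and the marker genes were named after their values were seen, as were the ratios between members. Profiles were compared after adding 0.1 CPM. The members and lists were chosen with earlier results of these data known. The fit was tested on simulated data. Alternatives were other scalings and filters, DESeq2 1.42.0, limma 3.58.1 (voom, and trend on log2 FPKM of genes averaging 0.5 or more), each sample left out, the replicate block, an assumed coefficient of variation of 0.2, and shares of counts. Some genes of the lists are not reported here by name.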

Additional observations from a re-analysis of the deposited data

How the results depend on the processing

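Hif1a, Epas1, Egln1, Egln3 and Vhl kept their direction and their call under all 17 alternative fits. Their log2 fold changes ranged from 2.36 to 2.51 for Hif1a, from 2.64 to 2.99 for Epas1, from 1.33 to 1.51 for Egln1, from 4.93 to 6.20 for Egln3 and from 0.47 to 0.64 for Vhl. The count of members called lower was 1 and became 2, with Egln2 added, under library size only, upper quartile scaling and limma-trend on log2(FPKM + 1) and on log2(FPKM + 0.1), and 0, with Arnt lost, under the assumed coefficient of variation of 0.2. With that value, 57 listed genes were higher and 18 lower, in place of 69 and 32. Over the fits that left out 1 sample, 5 to 6 members were called higher and 1 to 2 lower. Without a filter Hif3a was tested and passed (edgeR adjusted p = 9.88e-05), which made 6 members higher. With the replicate number as a block, 5 members were higher and 1 lower, and no member's call changed. The numbers left no visible pairing, since same-numbered samples deviated from their group means with correlations of -0.00063, 0.0185 and -0.00885. A weak shared effect could go unseen in this check, and the labels tie no number to an animal or batch. Differences in the Epas1 and Egln3 shares were 3.08 and 50.004 percentage points by counts, and 2.22 to 3.38 and 46.2 to 47.0 without each sample. Depth limits Hif3a, whose CYSP counts were as low as 2.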
